A study of Homo sapiens with 24 samples.

Results

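The regions described here carried the acetyl mark H3K27Ac in ANCO1 knockdown cells of both lines and were listed in control cells of neither. They were selected on the presence of rows alone: a region enriched over input in MCF10A (10A) shANCO1 cells was kept if it shared at least 1 base with a region enriched over input in MCFDCIS (DCIS) shANCO1 cells and no base with a region enriched over input in shCTRL cells of either line. This gave 1579 members of 28607 regions in 10A shANCO1 cells, or 5.52%. The members were paired with 1563 distinct DCIS regions and covered 975.9 kb in all.

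ChIP-seq with an antibody to H3K27Ac was run on 2 human mammary epithelial lines, the non-tumorigenic line 10A and the line DCIS, which descends from 10A and models ductal carcinoma in situ. Each line carried a lentiviral hairpin against ANCO1 (shANCO1) or a control hairpin (shCTRL, named shGFP in the tables), and infected cells were selected in puromycin, with no step of cloning stated. The paper's captions name the line of hairpin #3 for its H3K27Ac peaks, and the sample labels give no hairpin number. If both lines carried hairpin #3, a mark common to them is not a repeat with another hairpin. All groups grew in the same medium with horse serum, EGF, hydrocortisone, insulin and cholera toxin, and each group had 3 immunoprecipitated and 3 input libraries (sonicated chromatin that saw no antibody), 24 in all. No source used here says whether the 3 came from separate cultures. The deposited tables hold 1 fold change and 1 false discovery rate (FDR) for each region and group comparison, so neither a value per library, nor an SD, nor the read depth is known.

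H3K27Ac is an acetyl group on lysine 27 of histone H3. It is placed by the acetyltransferases p300 and CBP and removed by histone deacetylases, and it marks promoters and enhancers in use. ANCO1 is the product of ANKRD11, a large nuclear protein with ankyrin repeats that binds p160 coactivators and recruits deacetylases. Distal enhancers of epithelial cells are often bound by AP-1, a dimer of FOS and JUN family proteins, while promoters rich in CpG are often bound by SP, KLF and ETS factors.

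The sequences below are examples of members away from start sites and of members at promoters. Those away from start sites were chosen to hold the AP-1 letters and are not typical in this. The letters were in 17.4% of the 974 members with no start site within 1 kb, against 16.96% of all such 10A shANCO1 regions. The first 4 are distal members (no transcription start site, TSS, of a protein-coding gene within 1 kb) that were called up in shANCO1 against shCTRL in both lines, had at least 5 windows in both tested regions, and held the AP-1 letters in a window free of exons. Among such members they had the highest values of the smaller of both fold changes. FOSL2 was added because the gene itself encodes an AP-1 subunit. Letters are from hg38, plus strand, with the AP-1 match TGACTCA or its reverse complement in capitals.
FHAD1, chr1:15352592-15352712: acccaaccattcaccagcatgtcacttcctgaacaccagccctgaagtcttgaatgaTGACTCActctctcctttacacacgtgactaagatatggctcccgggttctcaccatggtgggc
AK5, chr1:77536866-77536986: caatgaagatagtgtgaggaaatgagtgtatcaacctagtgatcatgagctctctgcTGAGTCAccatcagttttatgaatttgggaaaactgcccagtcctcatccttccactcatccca
WFDC3, chr20:45779467-45779587: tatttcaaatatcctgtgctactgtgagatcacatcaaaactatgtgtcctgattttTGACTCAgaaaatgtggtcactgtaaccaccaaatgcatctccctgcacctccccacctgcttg
IGF2BP2, chr3:185688878-185688998: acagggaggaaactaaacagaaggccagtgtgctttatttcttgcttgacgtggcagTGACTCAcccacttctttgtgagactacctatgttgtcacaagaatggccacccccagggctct
FOSL2, chr2:28408922-28409042: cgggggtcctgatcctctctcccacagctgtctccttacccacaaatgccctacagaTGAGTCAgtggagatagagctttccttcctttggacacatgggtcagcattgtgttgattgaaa

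The others are examples of members at promoters, and each gives the 180 bases before a start site on the strand of its gene (plus in both). IVL, coding for the cornified envelope protein involucrin, had a member called up in both lines, while BCAP29, coding for a protein of the endoplasmic reticulum, was called up only in 10A. Of the 605 members with a TSS within 1 kb, 77 were called up in both lines and 364 only in 10A. Capitals mark the AP-1 letters and the SP/KLF letters GGGCGG or their reverse complement.
IVL, chr1:152908366-152908545: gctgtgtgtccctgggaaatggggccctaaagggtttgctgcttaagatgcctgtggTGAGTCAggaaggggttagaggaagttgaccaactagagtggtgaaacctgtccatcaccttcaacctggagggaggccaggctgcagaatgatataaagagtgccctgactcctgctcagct
BCAP29, chr7:107580066-107580245: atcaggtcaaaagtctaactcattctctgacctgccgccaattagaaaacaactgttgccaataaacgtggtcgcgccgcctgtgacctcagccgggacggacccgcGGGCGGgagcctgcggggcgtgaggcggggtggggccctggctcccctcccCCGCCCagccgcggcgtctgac

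The AP-1 letters before IVL lay outside its member, which spanned chr1:152907901-152908300 and ended 246 bases short of the start site. The central 200 bases of that member, chr1:152908001-152908200 on the plus strand, held neither set of letters.
IVL member: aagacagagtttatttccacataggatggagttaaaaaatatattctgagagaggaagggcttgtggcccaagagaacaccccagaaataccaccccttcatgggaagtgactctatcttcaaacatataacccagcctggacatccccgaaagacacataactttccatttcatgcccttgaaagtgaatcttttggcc

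Members were narrower and more weakly marked than regions marked in all 4 immunoprecipitated groups. Their median width was 500 bases (quartiles 300 and 800, longest 2700), against 600 bases for all 28607 regions of 10A shANCO1 cells. The median was 1400 bases for the 5702 regions marked in all 4 groups and 400 bases for the 11621 regions marked in 10A shANCO1 cells alone. The log2 fold over input in 10A shANCO1 cells had a median of 3.02 over members, 3.40 over all 10A shANCO1 regions and 3.58 over regions marked in all 4 groups. In DCIS shANCO1 cells the median at members was 4.06, against 4.77 at regions marked in all 4 groups. The rule used these input comparisons, so the values describe the members and no test was made of them.

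The absence of a control region means that a strict cut was missed, not that the mark was absent. Every listed region was up over input, and the highest FDR in the tables was 1.46e-08 for 10A shANCO1, 1.24e-08 for DCIS shANCO1 and 3.92e-08 for 10A shCTRL. In DCIS shCTRL it was 3.02e-06 apart from 2 rows with an FDR of 0.05 or more. At the edge of the rule, 51 members had a control region within 100 bases without overlap, with a median log2 fold over input of 3.005 in 10A and 4.58 in DCIS. Just outside it, 125 regions marked in both knockdown lines overlapped a control region by 100 bases or less, with medians of 2.75 and 4.30. Another 107 members shared 100 bases or less with their DCIS region, and 116 regions counted as 10A alone lay within 100 bases of one.

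Members lay both beside control-marked chromatin and far from it. Of the members, 448 (28.4%) had a control region of either line within 1 kb and 814 (51.6%) within 10 kb, and the median gap was 9000 bases. The gap to the nearest 10A control region had a median of 25600 bases and that to the nearest DCIS control region 22500 bases. Counted by gaps of 50 kb or less, members fell into 1328 groups, of which 1135 held a single member and 13 held at least 4. Pieces of a longer acetylated domain can appear as separate members, so neighbours are not independent.

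**Figure D1:**
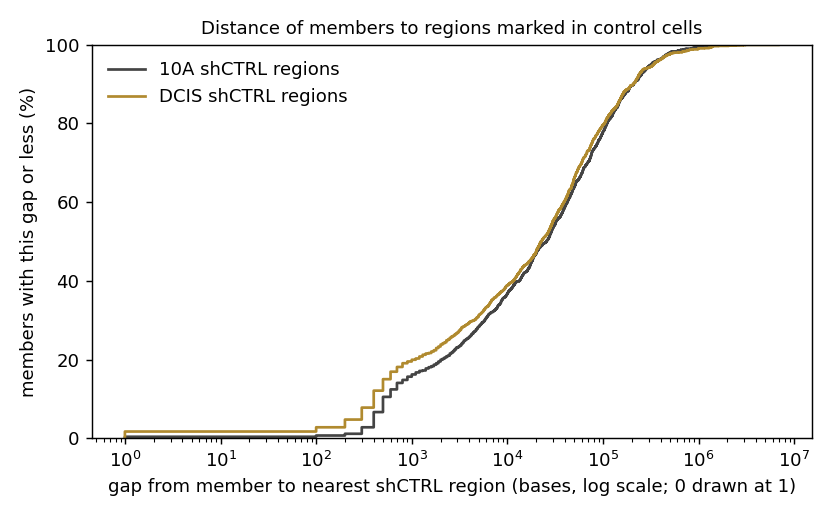
Cumulative share of the 1579 members (vertical axis, percent) by the gap in bases to the nearest region marked in shCTRL cells (horizontal axis, log scale, with gaps of 0 drawn at 1), 1 line for each cell line. The median gaps are 25600 bases in 10A and 22500 bases in DCIS, with 16.2% of members within 1 kb of a 10A control region and 19.9% within 1 kb of a DCIS control region.

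Control cells were checked against marker genes by whether a region was listed within 1 kb of a TSS. Among basal epithelial markers 3 of 7 had one in 10A shCTRL (KRT5, LAMB3, EGFR) and 5 of 7 in DCIS shCTRL (the same and KRT17 and ITGA6). KRT14 and TP63 had none in either line. Of luminal markers KRT8 had a region in both lines and GATA3 in DCIS. The 3 fibroblast, 2 immune and 2 endothelial markers had none in either line.

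The direct comparison of shANCO1 with shCTRL was read at the tested region that shared most bases with each member. It uses the same immunoprecipitated libraries as the rule, so high values were built into the choice of members, and the calls are given as a description. In 10A, 1136 of 1579 members (71.9%) were called up at FDR under 0.05, where 43.6% of all 50284 tested regions and 68.7% of all 10A shANCO1 regions were called up. In DCIS, 826 members (52.3%) were called up, where 23.6% of all 44790 tested regions and 30.6% of the 10A shANCO1 regions with a tested DCIS region were called up. Both shares were above those of all tested regions. Beside the 10A shANCO1 regions, the 10A share was close and the DCIS share higher. A call needs only some windows of a tested region: every window was counted up at 51 of the 1136 members up in 10A and 204 of the 826 up in DCIS, and at least 1 window was counted down at 2 and 6.

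Median values over the members were also above those of all tested regions in both lines. The median log2 fold change was 0.92 in 10A (quartiles 0.73 and 1.11) and 1.20 in DCIS (quartiles 0.68 and 1.80). Over all tested regions the medians were 0.76 and 0.52, so the members stood 0.16 above that level in 10A and 0.68 above it in DCIS. In 10A 98.6% of members had a positive value and 70.6% lay above the median of all tested regions; in DCIS the shares were 91.8% and 80.6%. A log2 fold change of 2 or more was found at 276 members in DCIS, 259 of them with no TSS within 1 kb, and at 7 members in 10A.

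Few members went down. In 10A 2 members (0.127%) were called down, against 0.225% of all tested regions and 0.0909% of all 10A shANCO1 regions. In DCIS 2 members (0.127%) were called down, against 4.86% of all tested regions. Of the 10A shANCO1 regions with a tested DCIS region, 1.73% were called down in DCIS. The 10A share was thus near that of other regions. The 10A pair lay within FBLN1, coding for the matrix protein fibulin 1 (log2 fold change -1.18 in 10A and 1.57 in DCIS), and in an intron of NRG1, coding for the ligand neuregulin 1 (-1.15 and 2.83). The DCIS pair lay within 1 kb of the TSS of PLEKHJ1 (0.98 in 10A and -1.97 in DCIS) and of IRAK1, coding for a kinase of interleukin-1 receptor signalling (0.90 and -1.88). All 4 were called up in the other line, and they are named because so few were down. The FBLN1 member adjoined a 10A control region and the PLEKHJ1 member a DCIS control region, each with a gap of 0 bases.

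The share called up in DCIS was close among members called and not called up in 10A. Both lines called 602 members up, 10A alone 534, DCIS alone 224 and neither line 219. DCIS called up 53.0% of the 1136 members that were up in 10A and 50.6% of the 443 that were not. Across the 1579 members values in 10A and DCIS had a Pearson correlation of 0.12 and a Spearman correlation of 0.16, given as a description since members share libraries. The 219 members up in neither line were listed in knockdown cells alone, yet the direct comparison did not call a difference there.

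Distance to a promoter separated the members in DCIS and not in 10A. A protein-coding TSS lay within 1 kb of 605 members (38.3%), against 26.0% of regions marked in 10A shANCO1 alone and 66.6% of regions marked in all 4 groups. At these 605 members 441 (72.9%) were called up in 10A and 99 (16.4%) in DCIS. At the 974 distal members 695 (71.4%) were called up in 10A and 727 (74.6%) in DCIS. The corresponding backgrounds over all tested regions were 59.8% with and 38.3% without a TSS in 10A, and 7.99% with and 30.1% without a TSS in DCIS. The same direction held in DCIS for regions marked in all 4 groups (7.95% with and 36.8% without a TSS), so the split itself was not particular to the members. The rule did not use the TSS, but no test of the split was made, because regions of the same libraries are not replicates.

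The sizes of the changes followed the calls. In DCIS the median log2 fold change was 0.63 at members with a TSS and 1.57 at distal members, or 0.11 and 1.05 above the median of all tested regions. In 10A the medians were 0.89 and 0.94, or 0.13 and 0.18 above it. Of the members with a TSS, 77 were up in both lines, 364 in 10A alone and 142 in neither. Of the distal members, 525 were up in both, 170 in 10A alone, 202 in DCIS alone and 77 in neither. Among members with at least 5 windows in both input tables, DCIS called up 14 of 31 with a TSS (45.2%) and 83 of 92 distal members (90.2%).

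**Figure D2:**
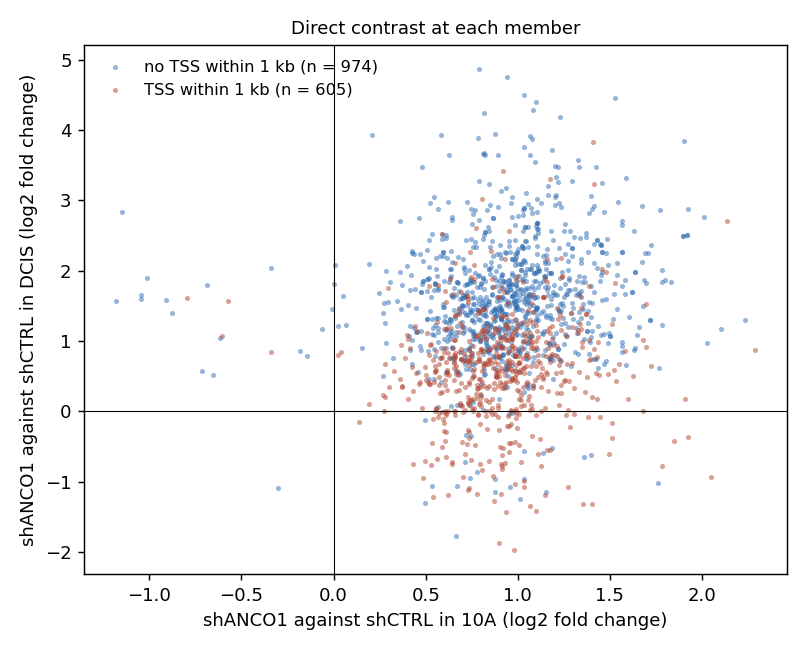
Log2 fold change of shANCO1 against shCTRL in 10A (horizontal axis) and in DCIS (vertical axis), 1 point for each of the 1579 members, with 605 members that have a TSS within 1 kb in red and 974 that do not in blue. Red and blue overlap along the 10A axis (medians 0.89 and 0.94), while blue lies higher along the DCIS axis (medians 0.63 and 1.57).

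The share called up in DCIS was higher in each class further from the start site. It was 15.2% of the 237 members over a TSS, 17.1% of the 368 within 1 kb of one, 65.2% of the 244 at 1 to 10 kb, 76.7% of the 597 at 10 to 100 kb and 82.7% of the 133 beyond 100 kb. In 10A the shares stayed between 69.8% and 77.6% over the same classes. For regions marked in all 4 groups the DCIS shares were 8.11%, 7.46%, 37.0%, 37.5% and 34.7%. For regions marked in 10A shANCO1 alone that had a tested DCIS region they were 7.10%, 7.45%, 41.5%, 50.1% and 43.9%. The step at 1 kb was thus not particular to the members.

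**Figure D3:**
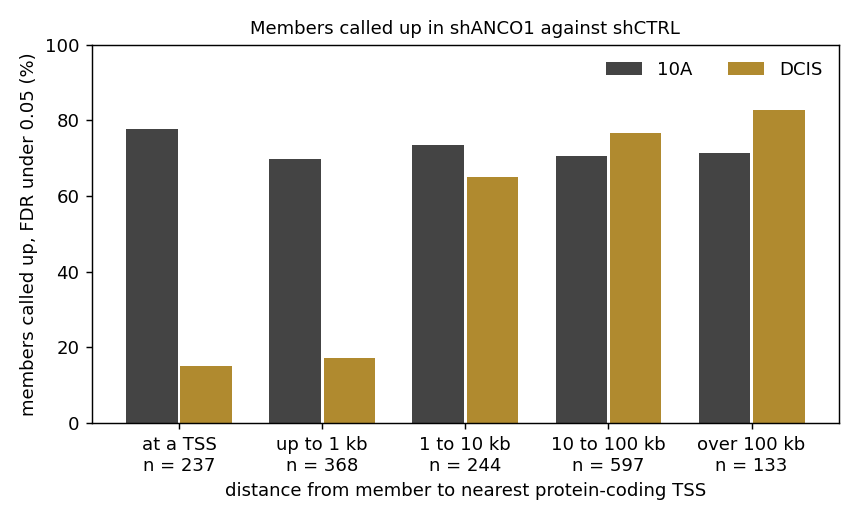
Share of members called up at FDR under 0.05 (vertical axis, percent) by distance to the nearest protein-coding TSS (horizontal axis, number of members under each class), with 10A in grey and DCIS in gold. The DCIS bars step from 17.1% to 65.2% between the classes up to 1 kb and 1 to 10 kb, and the 10A bars stay near 70%.

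Base composition moved with the split. The central 500 bases had a median GC content of 62.0% at members with a TSS and 49.4% at distal members. At a GC content of 55 to 65%, DCIS called up 17.6% of 255 members with a TSS and 68.5% of 241 distal members. At 65% and over the shares were 11.7% of 231 and 46.2% of 39, and under 45% they were 37.5% of 24 and 81.1% of 307. The gap between both kinds was thus present in each class of GC content, with the share of either kind lowest where GC was highest. The part of GC content in it was not tested further.

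The tested region around a member sometimes reached control-marked chromatin. Its median width was 2100 bases in 10A and 1900 bases in DCIS, and it overlapped a control region of the same line at 282 members (17.9%) in 10A and 324 (20.5%) in DCIS. Without these, DCIS called up 18.0% of 456 members with a TSS and 79.3% of 799 distal members. The 1579 members were read at 1517 distinct tested regions in 10A and 1519 in DCIS, so some neighbours share a value.

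The annotation deposited by the authors placed 954 members (60.4%) at a promoter, 35 in an exon, 295 in an intron and 295 at no gene. Their promoter class is wider than 1 kb and includes non-coding transcripts: 350 of the distal members belonged to it. DCIS called up 35.5% of members in that class, 78.3% of intronic members and 76.9% of those at no gene. By chromosome, members made up 10.1% of 10A shANCO1 regions on chromosome 19 and 8.74% on chromosome 17, and 3.06% on chromosome 20 and 3.23% on chromosome 13.

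Among members of at least 5 windows in both input tables (123 members), those with the highest smaller fold over input are described first. An intergenic member on chromosome 1 (chr1:188706201-188706800, nearest start site BRINP3 at 1771064 bases) stood 5.49 over input in 10A and 7.45 in DCIS, with direct log2 fold changes of 1.57 and 2.26. A member at no gene, with RASSF6 (a Ras association domain protein) as nearest start site (chr4:73662001-73663600), stood 8.31 over input in 10A, the highest value of all members, and 5.28 in DCIS. Its direct values were 1.60 and 1.35. Of these 10 members 9 were called up in both lines, the exception being an intronic member of the nuclear receptor gene RXRA (0.70, FDR 0.11 in 10A, and 1.21, FDR 0.054 in DCIS). The prior count behind a fold over input is not stated.

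Most other members of that set lay within genes. In IGF2BP2, coding for an RNA-binding protein, a member of 1800 bases (chr3:185687801-185689600) stood 4.57 and 5.36 over input, with direct values of 1.54 (FDR 6.7e-07) in 10A and 1.46 (FDR 0.00036) in DCIS. An intron of AKAP13, coding for a protein kinase A anchor, held one at 1.34 and 1.33, and an intron of PSD3 one at 1.56 and 1.78. At STK11, coding for the kinase LKB1, the member stood at 1.04 and 1.59, and in an intron of ZNF365 at 1.17 and 1.97. One lay over the TSS of B4GALT2 (0.94 and 1.03), and one within no protein-coding gene, 53360 bases from its nearest start site, SLC7A13 (1.38 and 2.27).

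Ranked by the smaller of both direct changes, with at least 5 windows in both tested regions (587 members up in both lines), the first member lay over the TSS of POLD4, coding for a small subunit of DNA polymerase delta (chr11:67352901-67354500). It stood at 2.14 (FDR 1.2e-05) in 10A and 2.70 (FDR 7.4e-07) in DCIS. It was the only one of the 10 with a TSS within 1 kb. The other 9 were distal, at SRGAP3 (2.01 and 2.77), METTL16 (1.92 and 2.88), XKR4 (2 members that share their values, 1.92 and 2.505), FHAD1 (1.83 and 1.85), beyond GRID1 (1.90 and 3.84), beyond GSK3B (1.80 and 1.86) and in PTK2B, coding for the focal adhesion related kinase PYK2 (2 members, 1.90 and 2.49). In all of them the 10A change was below the DCIS change.

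Over start sites fewer members were called up in DCIS than in 10A. Of the 237 members with a protein-coding TSS inside, the 8 with the highest smaller fold over input were called up in 10A at 7 and in DCIS at 3. B4GALT2 and DYNLT2B, coding for a dynein light chain (1.22 and 1.31), were up in both. BCAP29 stood at 1.17 in 10A and 0.70 in DCIS (FDR 0.30). One member lay over the start of AGO3 and an exon of AGO1, which code for Argonaute proteins of small RNA silencing. It stood at 1.55 in 10A and 0.67 in DCIS (FDR 0.38). ATRIP, a partner of the checkpoint kinase ATR, stood at 0.89 and 0.05, and the myosin gene MYO10 at 0.97 and 1.03 (FDR 0.081 in DCIS). HLCS, coding for the enzyme that attaches biotin to carboxylases, was up in neither (0.71 and 0.35).

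The highest DCIS values of any member were distal, that is, with no protein-coding TSS within 1 kb. An intron of MICAL2, coding for an enzyme that oxidises actin, held a member of 2700 bases (chr11:12173301-12176000) at 0.79 in 10A and 4.87 in DCIS (FDR 6.8e-12). The member over the long non-coding RNA gene UCA1 (chr19:15828101-15830100) stood at 0.94 and 4.75, and one in PEAR1, coding for a cell surface receptor, at 1.10 and 4.404. The authors' annotation, which includes non-coding transcripts, put the UCA1 and PEAR1 members in its promoter class. Values of 4.50 and 4.45 were found in FRMPD4 and RP1. These were chosen after their values were seen. The highest 10A value was 2.29, at a member over the TSS of NAA60, where DCIS stood at 0.87 (FDR 0.37).

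Some genes held several members. With the gene body and 5 kb upstream counted, 1310 protein-coding genes had a member, 127 had at least 2 and 29 at least 3, while 394 members lay at no such gene. CUEDC1 and KANK1, coding for an adaptor between adhesions and the cytoskeleton, had 5 each, with 4 of 5 called up in 10A and 4 of 5 in DCIS at either gene. At KANK1 the DCIS values ran from 1.11 to 2.57 and the 10A values from 0.84 to 1.28. Another 10 genes had 4, ANKRD11 among them.

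The genes with 4 members differed in which line called them up. All 4 at LRRC8A, coding for a subunit of the volume-regulated anion channel, were up in both lines (0.85 to 1.02 in 10A and 1.22 to 2.09 in DCIS). At MACF1, coding for a linker of microtubules and actin, all 4 were up in 10A (1.38 to 1.57) and none in DCIS (0.93 to 1.15). At the hexokinase gene HK1 all 4 were up in DCIS (1.40 to 1.70) and 1 in 10A (-0.88 to 1.33). Near SDC1, coding for the heparan sulphate proteoglycan syndecan 1, a group of 4 distal members was up in both lines with medians of 0.95 in 10A and 1.86 in DCIS.

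ANKRD11 itself, the target of the hairpin, held 4 members of its 11 regions in 10A shANCO1 cells. A hairpin acts on RNA, so these values say nothing about the knockdown. The member at chr16:89316501-89317100 was up in both lines (1.28 and 1.73) and so was the one at chr16:89320701-89321200, which lay 345 bases from a start site (0.98 and 1.31). The intronic member at chr16:89363201-89363600 was up in DCIS (1.46) and not called in 10A (0.87, FDR 0.11), and the fourth in neither (0.90 and 0.78). Of 18 genes of coactivators and deacetylases, ANKRD11 included, 17 had any 10A shANCO1 region and 3 a member. At HDAC7, coding for a histone deacetylase, neither line was called (0.74 and 0.60).

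The share of genes with a member set the scale for the lists below: of 11384 protein-coding genes with any 10A shANCO1 region, 1310 (11.5%) had one. This share was not adjusted for gene length or for the number of regions at a gene. For the calls in each list, the scale is the share of all 1579 members called up, 71.9% in 10A and 52.3% in DCIS. Some members called up in 10A had values below 0.76, the median of all regions tested there. The lists hold few members, so their counts are descriptions and no list was tested against these shares. Of 13 AP-1 genes, 11 had any region and 5 had a member, 1 at each. At 3 of these 5 the member was up in both lines, and 4 were up in 10A. FOSL1 had one upstream (chr11:65903301-65904100) at 1.71 (FDR 1.7e-05) in 10A and 2.25 (FDR 7.2e-08) in DCIS. FOSL2 stood at 1.16 and 2.31, and ATF3, coding for a stress-induced partner of JUN, at 1.11 and 2.01. At JUN itself, with a TSS 247 bases away, the values were 1.15 (up) and 0.79 (FDR 0.089). FOSB was up in neither (0.74 and -0.38).

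Genes of TGF-beta signalling and mesenchymal change numbered 21, of which 20 had any region and 4 a member, with 7 members in all, 5 up in 10A and 4 in DCIS. SMAD3, coding for the transcription factor that the receptor phosphorylates, held 3. The one at chr15:67127701-67128000 stood at 0.85 (FDR 0.002) in 10A and 3.24 (FDR 1.9e-11) in DCIS. The others stood at 0.89 and 1.13 (FDR 0.051 in DCIS) and at 0.73 (FDR 0.10 in 10A) and 1.37. TGFBI, coding for a matrix protein induced by TGF-beta, held 2 members that share their tested regions, at 1.04 and 2.90. TGFBR2, coding for the receptor, was called in neither line (0.61 and 1.17), and SKI, coding for an inhibitor of SMADs, only in 10A (0.76 and 1.14).

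Of 32 inflammatory and senescence-associated secreted genes, 22 had any region and 3 a member. All 4 of these members were up in 10A and 2 in DCIS. An intronic member of the EGFR ligand gene TGFA stood at 0.76 and 1.53, and one near its start site at 0.80 and 0.47 (FDR 0.52 in DCIS). At PLAUR, coding for the urokinase receptor, the values were 0.66 and 0.79 (FDR 0.18 in DCIS).

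The list of cell cycle inhibitors and senescence regulators held 14 genes, of which 12 had any region and 3 a member, with 4 members in all, 4 up in 10A and 1 in DCIS. CDKN1A, coding for the inhibitor p21, held 2, at 0.99 and 0.93 in 10A and at 1.15 (FDR 0.12) and 1.05 (FDR 0.10) in DCIS. At STAT3, coding for a transcription factor of cytokine signalling, the values were 1.38 and 1.43, both called up. At CDK6, coding for a cyclin-dependent kinase, they were 1.18 (up) and -0.52 (FDR 0.71), and the member adjoined a DCIS control region with a gap of 0 bases.

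Of 35 focal adhesion and hemidesmosome genes every one had a 10A shANCO1 region and 8 had a member. Of their 10 members 9 were up in 10A and 5 in DCIS. ITGA2, coding for a collagen-binding integrin subunit, had one over its TSS at 1.07 and 1.30. At DST, coding for a hemidesmosome linker, an intronic member stood at 1.11 and 2.04. At LAMA3, coding for a chain of an epithelial laminin, the values were 0.92 and 1.17, and at FLNA, coding for the actin crosslinker filamin A, 2 members shared 1.29 and 1.40. The member of 200 bases in ITGA6 was called in neither line (0.78 and -0.87), and 2 members at the tetraspanin gene CD151 that share their values only in 10A (0.73 and 0.71).

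Of 30 PI3K-AKT genes 24 had any region and 5 a member, with 7 of 8 members up in 10A and 4 in DCIS. An intron of INPP4B, coding for a phosphatase that opposes AKT signalling, held 2 with the same values, 1.02 in 10A and 2.35 in DCIS (FDR 4.0e-06). RPTOR, coding for a subunit of mTORC1, held 2, at 0.73 and 1.08 in 10A and 1.70 and 1.41 in DCIS. The start site of AKT1 and the promoter of RHEB were up in 10A (0.99 and 0.79) and not called in DCIS (0.60 and 0.72). At PHLPP1 1 of 2 members was up in 10A and none in DCIS.

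Of 23 Hippo and YAP-TEAD genes 21 had any region and 4 a member, with 6 members in all, 5 up in 10A and 4 in DCIS. VGLL4, coding for a TEAD cofactor that competes with YAP, held one over its TSS at 1.08 and 0.99 (FDR 0.13 in DCIS) and one further away at 0.90 and 2.24. AMOTL2 held 2, one called in 10A alone (1.64 and 0.90) and one in DCIS alone (0.97, FDR 0.053, and 1.63). TEAD3 stood at 0.56 and 1.33, and PTPN14 at 1.45 and 1.09, all called up. The 10A value at TEAD3 was below 0.76, the median of all regions tested in 10A.

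Of 27 epidermal differentiation genes 10 had any region and 3 a member. IVL stood at 1.41 (FDR 0.00028) in 10A and 3.84 (FDR 2.9e-09) in DCIS, where the nearest control regions were 191400 and 448900 bases away. It had the highest DCIS value of the members with a TSS within 1 kb. S100A16, coding for a calcium-binding protein, had one over its TSS at 1.30 and 1.20, both called up. At PKP1, coding for the desmosome protein plakophilin 1, the values were -1.05 (FDR 0.15) and 1.59 (FDR 0.00014). Among 9 genes that the study named from these samples as gaining both RNA and the mark, 8 had any region and IVL alone a member, which is no independent evidence.

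**Figure D4:**
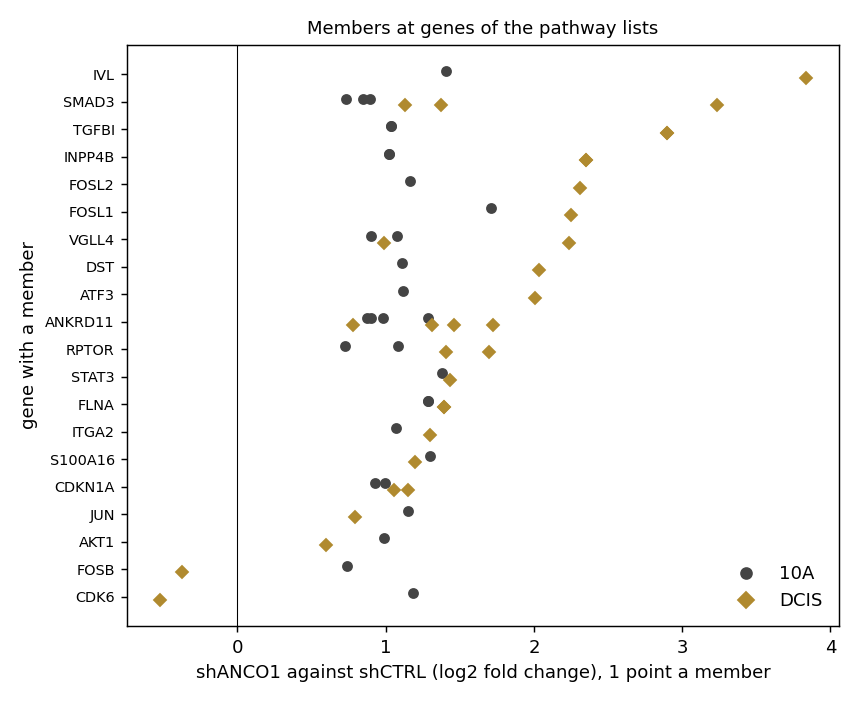
Log2 fold change of shANCO1 against shCTRL (horizontal axis) at members of some genes of the lists, chosen after their values were seen (vertical axis), 1 point a member, with 10A as grey circles and DCIS as gold diamonds. The DCIS points run from -0.52 at CDK6 to 3.84 at IVL, while the 10A points lie between 0.73 and 1.71. Members of the lists that are not drawn reach -1.05 in 10A (PKP1) and -0.87 in DCIS (ITGA6).

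Sequence letters were counted in the 500 bases at the midpoint of each region, on both strands. In a region narrower than this, a match can lie outside the region. With no TSS within 1 kb, the median width was 500 bases for members and for all 10A shANCO1 regions. It was 1600 bases for those marked in all 4 groups, so the shares of these are not fully comparable. The AP-1 letters TGACTCA were found in 205 members (13.0%), in 17.4% of the 974 distal members (95% Wilson interval 15.1 to 19.9%) and in 5.95% of the 605 with a TSS. All 10A shANCO1 regions with no TSS held them in 16.96%, and those marked in all 4 groups in 22.0%. Distal members with the AP-1 letters were called up in 77.5% in 10A and 81.7% in DCIS, and those without in 70.1% and 73.2%. Distal regions marked in all 4 groups were called up in 76.3% and 42.1% with the letters, and in 68.1% and 35.3% without. For distal regions marked in 10A shANCO1 alone the shares were 75.6% and 56.2% with, and 70.8% and 44.9% without. A higher share with the letters was thus not particular to the members. Among the 525 distal members up in both lines 105 (20.0%) held the AP-1 letters. The windows of FHAD1, AK5, WFDC3, IGF2BP2 and FOSL2 printed above are examples.

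Other letters gave a mixed picture in distal members, beside all 10A shANCO1 regions with no TSS. The SP/KLF letters GGGCGG were in 17.2% against 9.99%, the ETS letters CCGGAAG in 4.72% against 2.41% and the NF-kB letters GGGNNTTCC in 9.55% against 6.25%. The C/EBP letters TTNNGCAA were in 20.0% against 26.9%, the NFY letters CCAAT in 44.5% against 50.5% and the RUNX letters TGTGGTT in 9.03% against 11.1%. The TEAD letters GGAATG were in 28.1% against 29.1%, the FOX letters TGTTTAC in 6.78% against 8.38%, the STAT letters TTCCNGGAA in 1.95% against 1.90% and the CRE letters TGACGTCA in 0.21% against 0.22%. Matches of different letters may share bases. Letters rich in G and C were thus more frequent and several rich in A and T less frequent, and GC content moved with this: the median was 49.4% in distal members and 41.4% in all regions without a TSS. Its part was not tested, and a match is not a bound site.

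**Figure D5:**
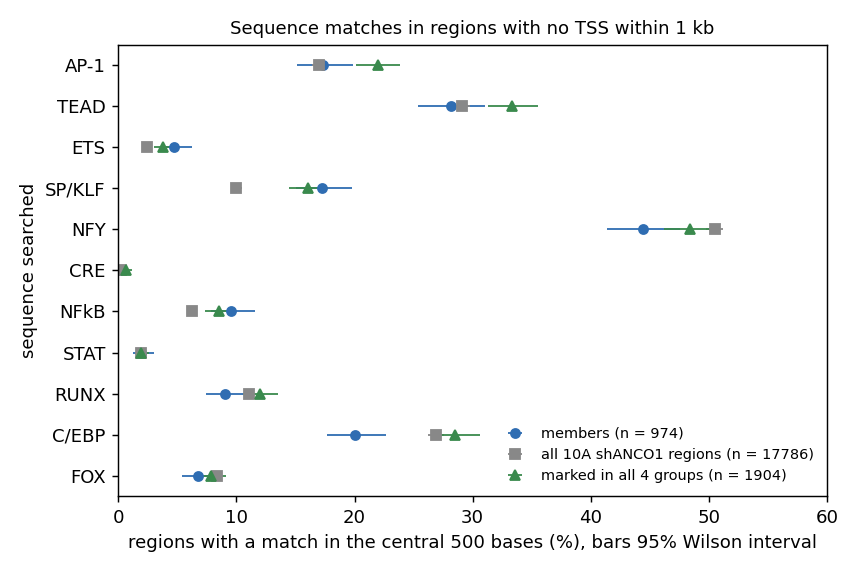
Share of regions with a match in the central 500 bases (horizontal axis, percent, bars 95% Wilson intervals that cover counting error only) for 11 sets of letters (vertical axis), in regions with no TSS within 1 kb, for 974 members (blue circles), 17786 regions of 10A shANCO1 cells (grey squares) and 1904 regions marked in all 4 groups (green triangles). Members and all regions lie together for AP-1 (17.4% and 16.96%) and apart for SP/KLF (17.2% and 9.99%).

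Members with a TSS were like other promoter regions in these counts. The SP/KLF letters were in 64.8% of them and in 62.9% of all 10A shANCO1 regions with a TSS, and the ETS letters in 14.7% and 14.04%. Their median GC content was 62.0% against 61.6%, and their median number of CpG in 500 bases was 31 against 34. BCAP29, printed above with 2 matches to the SP/KLF letters in 180 bases, belonged to the members up in 10A alone.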

How the data were processed

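H3K27Ac ChIP-seq and input libraries (24, in 8 groups of 3) of 10A and DCIS cells were analysed from 6 deposited tables. According to its methods, BWA and Rsubread served for alignment (GRCh38), samtools for deduplication, csaw for window tests and ChIPpeakAnno for annotation; window filter, normalization and prior count are not given in the sources used here. The authors deposited, for each region, a log2 fold change of 1 representative window, a p-value with its FDR (1 per comparison, replicates combined) and other values, namely numbers of windows and gene overlaps. These are the authors' own comparisons: rows of the input tables were used as region lists, values of the direct tables as descriptions. Members and gene lists were chosen with earlier results of these data known.

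Regions overlapped at 1 base or more; values came from the region sharing most bases. TSS were of basic protein-coding transcripts (GENCODE 44, hg38). No region ran past a chromosome end, and 93.8% of 30050 gene placements in the 10A shANCO1 table fell no more than 3 kb from the same-named gene in GENCODE. Named members were the 10 with the highest smaller fold over input (5 windows or more in both), the 10 with the highest smaller direct change among those up in both, the 8 over a TSS with the highest smaller fold over input, the 5 genes with most members (ties given as such) and up to 6 genes per list. Printed AP-1 windows were not taken from chromosome 8. Alternatives covered overlap, FDR, fold change, centring, TSS distance and motif window. Overlap and motif code was tested on simulated data. Depth is unknown, and p-values from 3 libraries measure only the spread between these. Scripts used Python 3.11.15 with numpy, pandas, scipy and pysam. Some results are not reported here.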

Additional observations from a re-analysis of the deposited data

How the results depend on the processing

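No paired analysis was possible because the tables hold 1 value for each region and comparison and none for each library, and for the same reason no library could be left out in turn. The number of members, 1579, fell to 850 when each region had to share 50% of its bases with the DCIS region in both directions and to 123 when both knockdown regions needed 5 windows or more. It was 3778 when a region could be covered by control regions up to 50%. Other rules for overlap, FDR and the line counted gave 1140 to 2000. In 10A, 1136 members called up became 738 at FDR under 0.01, 580 with a log2 fold change of 1 or more and 24 with a log2 fold change 1 or more above the median of all tested regions. In DCIS, 826 called up stayed between 559 and 904 under every alternative tried, where 559 is the count 1 or more above the median. Leaving out members whose tested region overlaps a control region, an alternative chosen after seeing the data, gave 931 in 10A and 716 in DCIS. Centred on that median, the median log2 fold change was 0.16 in 10A and 0.68 in DCIS. A TSS was at 42.1% of members within 2.5 kb and at 15.0% inside the region, against 38.3% within 1 kb. The AP-1 letters were in 4.81% of members in 200 bases, 36.3% in 1000 bases and 17.4% of distal members, against 13.0%. The causes of these shifts were not tested, apart from window size, TSS distance and threshold, which set the counts by construction. No depth or replicate spread is known, which limits every value.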
